A study of Homo sapiens with 12 samples.

Results

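Decitabine combined with vorinostat brought 41 genes from below detection to detection in both of a pair of lung adenocarcinoma lines that differ in their EGFR mutations. A gene was counted when none of its probes had a detection p-value under 0.01 on any of the 6 untreated arrays and 1 of its probes was under 0.01 on all 6 treated arrays. The detection p-value compares a probe's signal with the array's background. Of 20046 genes with a symbol on the array, 8357 were undetected on every control array, and 48 of the 20046 (0.239%) met the rule. Left out of the 48 were 7 genes of families set aside by name, 4 solute carriers and 3 of the SPANX and VCX families. The count depends on the detection limit. Only 3 genes had a detection p under 0.001 on all treated arrays, and with a limit of 0.05 on both sides 53 genes met the rule, 16 of the 41 among them. The opposite rule, detection on all 6 control arrays and on no treated array, took 6 genes (0.0299%), namely HPDL, KCNK2, RFTN2, SFTPA1, SFTPB and UBA7. Because the detection values chose the 41 genes, their difference between treated and control cells is given as a description, with no test.

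The study hybridised RNA from 12 cultures, 3 biological replicates of each of 4 groups, to 1-colour Illumina bead arrays. HCC827 is an established human lung adenocarcinoma cell line with an activated EGFR. HCC827-Del carries EGFR L747-S752 and HCC827-Del-TM carries EGFR L747-S752/T790M, by their labelled genotypes, so every group has the deletion. Each line received DMSO (control) or 2.5 µM decitabine with 1 µM vorinostat (treated), for 72 h. The labels do not say how HCC827-Del-TM was derived. Neither drug was given alone, and the effects of the 2 drugs cannot be told apart. The genotype and any other difference between the lines cannot be told apart either, since each genotype is 1 line.

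DNA methylation at a gene's start and the removal of acetyl groups from histones are among the ways in which cells keep tissue-restricted genes silent. Decitabine is a cytidine analogue that is built into DNA and traps DNA methyltransferases, so that methylation is lost as cells divide. Vorinostat inhibits histone deacetylases and raises histone acetylation. Germline genes are known to be silenced by methylation in most adult tissues. Genes of squamous epithelium and of immune cells are normally kept to their own cell types and are not part of the alveolar programme from which lung adenocarcinoma lines derive. No methylation or acetylation was measured here.

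The arrays had median signals of 95.4 to 104, and 16251 to 19671 of 47323 probes were detected per array, with treated HCC827-Del highest (18617 to 19671) and the other groups at 16251 to 18055. Log2 intensities of replicates correlated across genes at 0.995 to 0.996. All 15 epithelial identity markers (EPCAM, keratins, claudins and lung genes) were detected on every control array of both lines. EGFR, DNMT1, DNMT3B, UHRF1, HDAC1 and CDKN1A were detected on all 12 arrays, whereas the 3 probes of TET1, the demethylase gene of the series' title, were detected on 1. CDKN1A, the p21 cell-cycle inhibitor gene and a known target of histone deacetylase inhibitors, rose by 2.79 on the log2 scale in HCC827-Del (SE 0.0789, limma adjusted p = 4.04e-12) and by 2.27 in HCC827-Del-TM (adjusted p = 1.06e-10). In HCC827-Del-TM, the maintenance methylation genes DNMT1 and UHRF1 fell by 0.88 (adjusted p = 5.29e-07) and 1.55 (adjusted p = 4.06e-09). In HCC827-Del, UHRF1 rose by 0.55 (adjusted p = 6.18e-05), and DNMT1 was at -0.06 (adjusted p = 0.519).

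The gene starts of 7 of the 41 genes are shown because these genes had among the largest differences between the treated lines, and because both drugs act on chromatin at such places. The start of HTRA1, a secreted serine protease gene, is shown as a CpG-rich contrast. Each sequence is the 250 bases before the start, read 5′ to 3′ on the gene's strand, from RefSeq on GRCh38.p14, with every CpG in capitals. The positions are SBSN at chr19:35528312-35528561 (minus strand), GTSF1 at chr12:54473603-54473852 (minus strand), SUN3 at chr7:48029108-48029357 (minus strand), QPRT at chr16:29678930-29679179 (plus strand), CAMP at chr3:48223245-48223494 (plus strand), TNFSF10 at chr3:172523431-172523680 (minus strand), SERPINB13 at chr18:63587093-63587342 (plus strand) and HTRA1 at chr10:122461303-122461552 (plus strand). All lie directly upstream of the annotated transcript.
SBSN: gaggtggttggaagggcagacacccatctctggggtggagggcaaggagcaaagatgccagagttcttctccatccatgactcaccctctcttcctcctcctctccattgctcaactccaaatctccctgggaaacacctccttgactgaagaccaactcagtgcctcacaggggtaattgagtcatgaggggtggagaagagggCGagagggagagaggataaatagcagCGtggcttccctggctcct
GTSF1: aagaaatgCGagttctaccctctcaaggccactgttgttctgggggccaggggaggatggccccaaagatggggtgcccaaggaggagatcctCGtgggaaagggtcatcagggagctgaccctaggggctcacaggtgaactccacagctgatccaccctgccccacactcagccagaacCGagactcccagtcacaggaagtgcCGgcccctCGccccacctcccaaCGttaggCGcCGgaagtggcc
SUN3: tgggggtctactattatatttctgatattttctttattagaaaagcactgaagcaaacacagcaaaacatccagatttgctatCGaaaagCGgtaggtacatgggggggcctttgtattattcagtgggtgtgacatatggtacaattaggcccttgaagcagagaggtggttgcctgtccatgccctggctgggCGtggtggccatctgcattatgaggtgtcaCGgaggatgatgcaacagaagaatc
QPRT: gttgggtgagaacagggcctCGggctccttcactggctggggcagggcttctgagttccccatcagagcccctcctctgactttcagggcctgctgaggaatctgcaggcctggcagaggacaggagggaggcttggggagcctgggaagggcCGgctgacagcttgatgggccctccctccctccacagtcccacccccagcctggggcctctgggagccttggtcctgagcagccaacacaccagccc
CAMP: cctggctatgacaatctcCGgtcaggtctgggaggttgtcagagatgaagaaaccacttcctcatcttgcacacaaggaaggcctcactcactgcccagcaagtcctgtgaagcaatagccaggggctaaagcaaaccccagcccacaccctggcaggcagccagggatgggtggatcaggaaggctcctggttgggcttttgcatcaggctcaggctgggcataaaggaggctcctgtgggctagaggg
TNFSF10: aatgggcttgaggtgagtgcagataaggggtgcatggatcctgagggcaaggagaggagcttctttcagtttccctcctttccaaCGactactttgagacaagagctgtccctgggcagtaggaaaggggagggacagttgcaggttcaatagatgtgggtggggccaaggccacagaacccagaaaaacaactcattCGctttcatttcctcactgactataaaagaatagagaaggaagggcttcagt
SERPINB13: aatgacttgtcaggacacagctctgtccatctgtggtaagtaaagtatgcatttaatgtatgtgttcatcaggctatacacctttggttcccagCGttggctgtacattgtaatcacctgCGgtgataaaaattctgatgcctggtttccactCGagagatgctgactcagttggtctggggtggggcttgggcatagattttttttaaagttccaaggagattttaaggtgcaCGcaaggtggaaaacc
HTRA1: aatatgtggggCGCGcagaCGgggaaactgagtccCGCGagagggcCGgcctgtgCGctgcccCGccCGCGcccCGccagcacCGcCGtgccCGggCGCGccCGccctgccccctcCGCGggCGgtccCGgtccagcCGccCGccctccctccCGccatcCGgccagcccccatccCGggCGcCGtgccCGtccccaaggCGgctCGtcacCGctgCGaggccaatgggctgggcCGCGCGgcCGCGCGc
CAMP had 1 CpG in this stretch, SBSN, QPRT and TNFSF10 had 2 each, SUN3 and SERPINB13 had 4 each, GTSF1 had 8 and HTRA1 had 39. CpG is the pair at which mammalian DNA methyltransferases act.

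Over a 300-base window (250 before to 50 after the start), 30 of the 41 genes had a RefSeq sequence. CpG content was measured as observed over expected, the number of CpG pairs relative to the number that the C and G content of the window would give. Its median was 0.292 over the 30 genes, against 0.802 over 15033 genes of the array and 0.479 over the 4704 of these that were undetected on all 12 arrays. Where a gene has several starts, the start with the highest value was used, and with the lowest the medians were 0.274, 0.709 and 0.351. A value of 0.6 or more, a common limit for CpG islands, was found for 6 of the 30 (20%), namely ALPL, CA12, H4C5, HTRA1, MAP7D2 and TMEM25, against 70.8% and 43.2% of the same comparison genes. Values under 0.2 were found for 10 of the 30 (33.3%), among them SBSN (0.177), QPRT (0.0977), CAMP (0.0395), TNFSF10 (0.159) and UPK1A (0.145), against 10.6% and 24.5%. Because only 73.2% of the 41 genes have a sequence, under the 80% set for such a check, the comparison is void for the 41 genes as a whole. If all 11 without a sequence lay at 0.6 or above, 17 of 41 (41.5%) would. Those not matched were GBP5, HTR3A, RADX, PADI3, HAVCR2, NCF4, GLIPR1, SPRR2D, CYTH4, VWA5A and BCAS1.

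**Figure D1:**
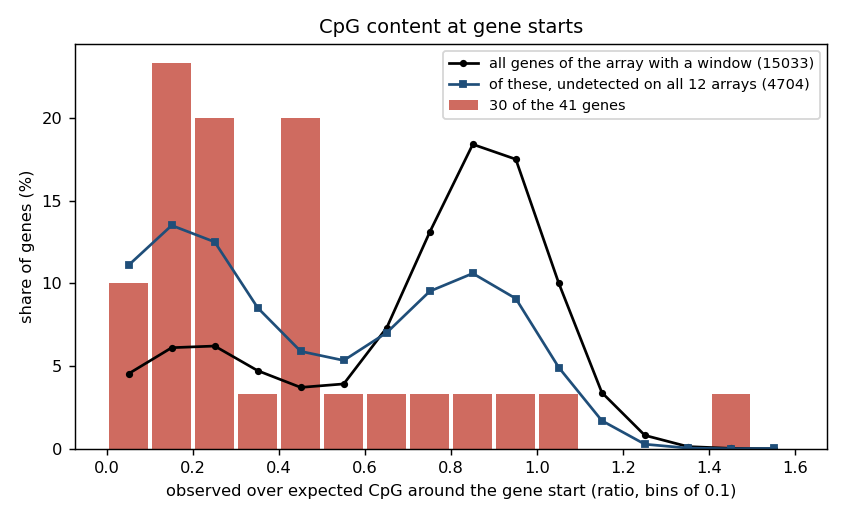
Share of genes (%) by observed over expected CpG in the 300 bases around the gene start, in bins of 0.1. Bars are the 30 switched-on genes with a sequence (median 0.292), the black line 15033 genes of the array (median 0.802) and the blue line the 4704 of them undetected on all 12 arrays (median 0.479); most bars lie under 0.5, where the black line is low.

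The sequence TATAAA, searched on both strands, was present in the window of 7 of the 30 genes (23.3%), of 9.19% of the array's genes and of 15.9% of those undetected on all 12 arrays. It began 31 bases before the start of TNFSF10. The AP-1 sequence TGACTCA was found for 4 of 30 (SBSN, SERPINB13, TM4SF19 and ATG9B; 13.3%), against 3.52% and 4.51% of the same comparison genes, and the GC box GGGCGG for 8 of 30 (26.7%), against 61.9% and 42.6%. CCAAT was present for 7 (23.3%, against 35.7% and 34.4%), the E2F sequence TCCCGC for 6 (20%, against 37.3% and 26%), the E-box CACGTG for 1 (3.33%, against 8.94% and 6.4%), the interferon-stimulated response element for 2 (6.67%, against 3.09% and 3.59%) and the NRF1 motif for 0 (against 1.84% and 0.765%). These are matches of letters in 1 window and describe no binding, and with 11 genes unmatched they do not speak for all 41.

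Genes of squamous and barrier epithelium held the gene with the largest difference from the controls. SBSN encodes suprabasin, a secreted protein of the upper epidermis. Its signals were 106, 95 and 97.3 in the HCC827-Del controls, 953, 1006 and 952 in treated HCC827-Del, 94.4, 95.7 and 94.2 in the HCC827-Del-TM controls and 176, 221 and 206 in treated HCC827-Del-TM. All treated arrays lay above all controls, and the treated groups did not overlap. In RNA of whole cultures, more expressing cells and more RNA per cell cannot be told apart. Where a control is below detection, a fold can be given only as a lower bound. The treated mean was divided by the lowest signal that counted as detected on each control array, averaged over the 3 controls of the line. All bounds were taken on normalized intensities after background correction, which subtracts an estimated background from every signal. They are therefore not ratios of the deposited signals printed here, and lie above those ratios for some genes and below them for others. For SBSN the bound was at least 26.4-fold in HCC827-Del and at least 4.03-fold in HCC827-Del-TM after correction, and 8.32-fold and 1.91-fold without it.

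PADI3 encodes a peptidylarginine deiminase that citrullinates structural proteins of hair follicle and epidermis. Its signals were 350.2, 360.0 and 394 in treated HCC827-Del and 142, 166 and 142 in treated HCC827-Del-TM, against 98.7 to 106 over the 6 controls. The corrected bounds were at least 8.29-fold and at least 2.36-fold (3.11 and 1.41 without correction). SERPINB13, a protease inhibitor gene of squamous epithelia, had the opposite order, with 132, 147 and 145 in treated HCC827-Del, 215, 234 and 218 in treated HCC827-Del-TM and 94.3 to 109.5 in the controls. It was at least 1.73-fold higher in HCC827-Del and at least 4.78-fold in HCC827-Del-TM (1.21 and 2.14 without correction). UPK1A, a urothelial uroplakin gene, had signals of 178, 206 and 194 and of 112, 112 and 113 in the treated lines, in that order, and 93.1 to 101 in the controls. For SPRR2D, a cornified envelope precursor gene, they were 171, 185 and 171 and 114, 135 and 112, against 97.1 to 109. The bounds of UPK1A were at least 3.19-fold in HCC827-Del and at least 1.15-fold in HCC827-Del-TM, and those of SPRR2D 2.71-fold and 1.38-fold. Without correction they were 1.63 and 1.05 for UPK1A and 1.49 and 1.12 for SPRR2D. SPRR2 genes are near-identical to each other, so the copy behind the SPRR2D signal is uncertain.

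The germline was represented by GTSF1, a zinc finger protein gene of the piRNA pathway, and SUN3, a nuclear envelope protein gene of spermatids. GTSF1 signals were 103, 99.99 and 103 in the HCC827-Del controls, 442, 504 and 529 in treated HCC827-Del, 87.7, 94.6 and 95 in the HCC827-Del-TM controls and 130.3, 128 and 128 in treated HCC827-Del-TM. SUN3 signals were 381, 414 and 368 in treated HCC827-Del and 119, 122 and 125 in treated HCC827-Del-TM, against 87 to 95.2 in the controls. Both genes were far higher in treated HCC827-Del than in treated HCC827-Del-TM, with no overlap. After background correction, the bounds of GTSF1 were at least 12-fold in HCC827-Del and 1.7-fold in HCC827-Del-TM, and those of SUN3 8.92-fold and 1.48-fold. Without it they were 4.18 and 1.21 for GTSF1 and 3.28 and 1.14 for SUN3.

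**Figure D2:**
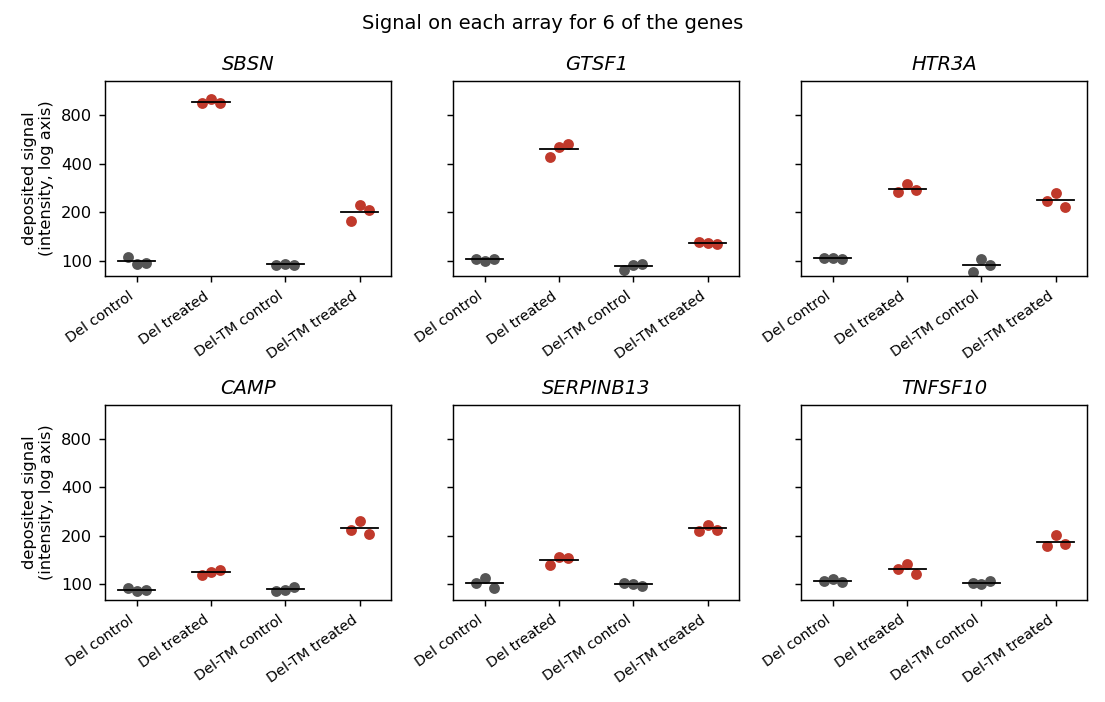
Deposited signal (intensity, log axis) of SBSN, GTSF1, HTR3A, CAMP, SERPINB13 and TNFSF10 on each of the 12 arrays, grouped by line and treatment; grey points are control arrays, red points treated arrays, and a bar marks each group's mean of 3. SBSN and GTSF1 are highest in treated HCC827-Del, CAMP, SERPINB13 and TNFSF10 in treated HCC827-Del-TM, and HTR3A lies at 216 to 299 in both treated groups.

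Among 9 genes with roles in immunity, CAMP, the precursor gene of the cathelicidin antimicrobial peptide, differed most between the lines. It had signals of 114, 119 and 124 in treated HCC827-Del and 219, 247 and 206 in treated HCC827-Del-TM, with controls at 91.2 to 96.7. The bounds were at least 1.13-fold and at least 4.81-fold (1.04 and 2.15 without background correction). TNFSF10 encodes TRAIL, a ligand that triggers apoptosis through death receptors. Its signals were 124, 133 and 116 and 172, 203 and 178 in treated HCC827-Del and treated HCC827-Del-TM, and 100.2 to 108 in the controls, and the bounds were at least 1.26-fold and 3.5-fold. ALOX5AP, a membrane protein gene needed for leukotriene synthesis, had 179.8, 232 and 211 and 149, 176 and 162, against 90.7 to 100.3. It was at least 3.58-fold and 2.76-fold higher. MARCO, a scavenger receptor gene of macrophages, had 207, 201 and 193 and 113, 122 and 115, against 94.5 to 106, with bounds of at least 3.42-fold and 1.3-fold. Without correction, the higher bound of each was 1.75 for TNFSF10, 1.75 for ALOX5AP and 1.7 for MARCO.

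The other 5 genes of this group lay close to the detection limit, with bounds of at most 1.63 in both lines. HAVCR2, an inhibitory receptor gene of T cells, had treated signals of 113 to 137. CYTH4, an ARF exchange factor gene expressed in blood cells, lay at 123 to 132. NCF4, a subunit gene of the phagocyte NADPH oxidase, lay at 107 to 123. For GBP5, an interferon-induced GTPase gene, the treated range was 109 to 116, and for RAET1G, which encodes a ligand of an activating receptor of natural killer cells, it was 106 to 117. NCF4 and GBP5 are given no fold in HCC827-Del, because the treated mean did not exceed the lowest detected signal of the controls.

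Markers of blood cells were examined beside these genes, since a few are typical of leukocytes. Of 40 blood cell genes with a probe, 16 were detected on no array, among them PTPRC, SPI1, MS4A1, CD163, CD3E and HBB. Their summed level, on the normalized linear scale, ran from 19400 to 19800 in the HCC827-Del controls and 22500 to 23100 after treatment, and from 18300 to 19100 and 21300 to 22700 in HCC827-Del-TM. Of the 18 blood cell genes tested, 12 rose and 2 fell in HCC827-Del, where 24.8% of all 11808 genes tested rose and 26.5% fell, and 12 rose and 4 fell in HCC827-Del-TM (21.7% and 24.1%). In each line, 5 of the 12 that rose were undetected on all 3 controls, and such genes entered the test through arrays of other groups, which favours a rise. Of the 10 detected on all 3 controls of a line, 5 rose and 2 fell in HCC827-Del, and 6 rose and 4 fell in HCC827-Del-TM. Over all genes so detected, 21.6% rose and 30.5% fell in HCC827-Del, and 21.6% and 27.9% in HCC827-Del-TM. CD3D, a T-cell receptor complex gene, was at least 5.8-fold higher in HCC827-Del and rose by 1.58 on the log2 scale in HCC827-Del-TM (SE 0.12, limma adjusted p = 1.82e-07). HCLS1, a haematopoietic adaptor gene, was at least 2.73-fold higher in HCC827-Del and was detected on 2 treated HCC827-Del-TM arrays. ITGAX, a leukocyte integrin gene, was at least 2.88-fold higher in HCC827-Del-TM. In HCC827-Del, where 1 control detected it, it rose by 1.32 on the log2 scale (limma adjusted p = 8.27e-06). The 2 genes that fell in HCC827-Del were ITGB2 and CD79A, with log2 changes of -0.76 and -0.87. Both also fell in HCC827-Del-TM (-1.17 and -0.87), as did CORO1A (-0.87) and ARHGDIB (-0.33).

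QPRT, which encodes the enzyme that turns quinolinate into an NAD precursor, had the largest bound of 5 enzyme genes in HCC827-Del, and CPS1 in HCC827-Del-TM. Its signals were 352, 354 and 356 in treated HCC827-Del, 118, 126 and 117 in treated HCC827-Del-TM and 92.4 to 102 in the controls. The bounds of QPRT were at least 7.88-fold and 1.42-fold (2.98 and 1.13 without background correction). Treated signals ran from 134 to 159.9 for CPS1, the mitochondrial carbamoyl phosphate synthetase gene of the urea cycle, and from 118 to 146 for CA12, a carbonic anhydrase gene. They ran from 112 to 127 for ALPL, an alkaline phosphatase gene, and from 111 to 124 for DDC, which encodes the decarboxylase of dopamine and serotonin synthesis. CPS1 reached at least 1.7-fold and 2.26-fold in HCC827-Del and HCC827-Del-TM (1.2 and 1.38 without correction), and the bounds of CA12, ALPL and DDC were between 1.1 and 1.78.

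HTR3A, a subunit gene of the serotonin-gated ion channel, was the gene with a bound above 5 in both lines. This rests on 1 of its 3 probes. Another was detected on no array, and the last on 2 treated arrays. Signals of the probe that met the rule were 104, 104 and 102 in the HCC827-Del controls and 266, 299 and 276 in treated HCC827-Del. They were 85.6, 102 and 93.6 in the HCC827-Del-TM controls and 235, 262 and 216 in treated HCC827-Del-TM. The bounds were at least 5.73-fold and 5.27-fold after background correction, and 2.37-fold and 2.28-fold without it. The treated groups did not overlap in signal, and overlapped after normalization. Among other membrane protein genes, TM4SF19, a gene of the transmembrane 4 L6 family, had 251, 282 and 254 in treated HCC827-Del and 113, 119 and 124 in treated HCC827-Del-TM, against 87.9 to 107. FXYD1, the phospholemman gene whose product regulates the sodium pump, had 239, 249 and 224 and 136, 147 and 139, against 92.6 to 105. Their bounds were at least 5.21-fold and 4.47-fold in HCC827-Del, and 1.36-fold and 2.06-fold in HCC827-Del-TM. Without correction, the former were 2.22 and 2 and the latter 1.11 and 1.32. PCDH1, a protocadherin gene, LDLRAD1 and TMEM25 stayed near the limit, with treated signals of 108 to 126, 112 to 119 and 109 to 119.7.

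Of 5 genes for secreted and matrix proteins, GLIPR1 had the largest bounds in both lines, with 210.5, 235 and 219 in treated HCC827-Del and 132, 148 and 162 in treated HCC827-Del-TM, against 87.7 to 96.5. Its bounds were at least 4.02-fold and 2.27-fold (1.87 and 1.39 without background correction). F5, the coagulation factor V gene, had 150.3, 169.9 and 164 and 128, 149 and 141, against 93 to 102, and was at least 2.29-fold and 2.01-fold higher (1.37 and 1.31 without correction). COL4A6, which encodes a basement membrane collagen chain, had 108, 124 and 118 and 133, 147 and 148, against 91.7 to 104. The COL4A6 bounds were at least 1.06-fold in HCC827-Del and 2.14-fold in HCC827-Del-TM (1.02 and 1.34 without correction). HTRA1 had treated signals of 111 to 148, and SERPINI1, the neuroserpin gene, of 114 to 138.

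The remaining 9 genes have varied roles. RADX, which encodes a single-stranded DNA binding protein of replication forks, had treated signals of 118 to 172, VWA5A of 116 to 158 and BCAS1 of 115 to 149.8. MAP7D2, a microtubule-associated protein gene, had 120.5 to 156, MYH8, the perinatal muscle myosin gene, 117 to 132, and TMEM40 115 to 137. ATG9B, an autophagy gene, had 117 to 125, H4C5, a core histone gene, 114 to 121, and the noncoding RNA gene LINC02783 110.1 to 136. H4C5 belongs to a multigene family, and its signal may include other copies. Bounds of these 9 genes ran from 1.06 to 2.34 in HCC827-Del and from 1.16 to 1.93 in HCC827-Del-TM.

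**Figure D3:**
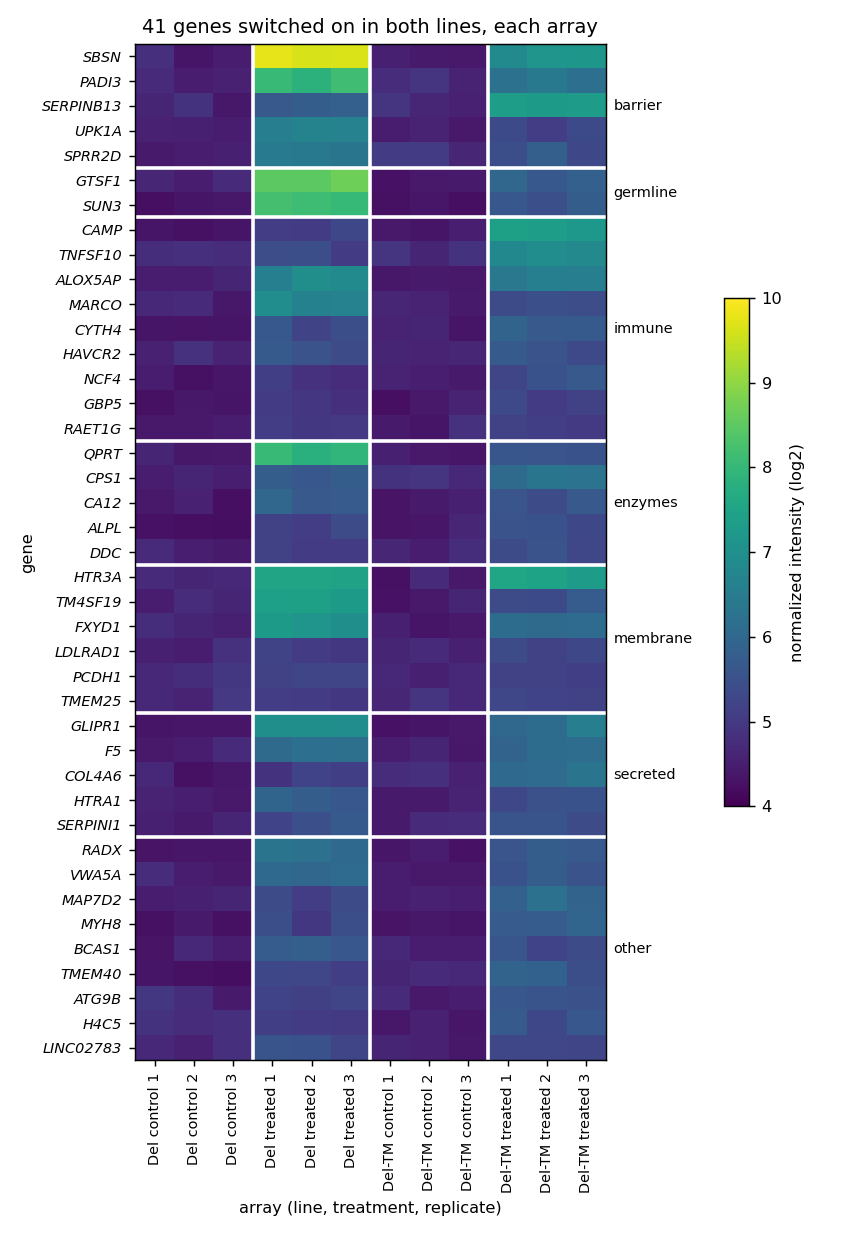
Normalized intensity (log2, colour) of the 41 genes on the 12 arrays, 1 row per gene and 1 column per array, grouped by role and ordered by the higher treated mean. Control columns are uniformly dark because the genes were chosen as undetected there; SBSN, GTSF1, SUN3, PADI3 and QPRT are brighter in treated HCC827-Del than in treated HCC827-Del-TM, and rows are not to be compared with each other, since each is another probe.

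Over all 41 genes, the bounds ran up to 26.4 in HCC827-Del (median 1.7) and up to 5.27 in HCC827-Del-TM (median 1.42). The bound was at least 2 in 16 and 12 genes, and in both lines for 7, namely SBSN, PADI3, HTR3A, ALOX5AP, GLIPR1, FXYD1 and F5. In 13 genes both bounds were under 1.5. These sizes depend on the background correction. Without it, 8 and 3 genes reached 2, and the largest bounds were 8.32 and 2.28. Counted on its own 3 treated arrays, HCC827-Del had 426 genes switched on and HCC827-Del-TM had 85, of which 42 were shared, 9.86% of the first set and 49.4% of the second. The detection limit differed between these arrays. The lowest detected log2 intensity was 4.76 to 4.85 in treated HCC827-Del and 4.95 to 5.16 in treated HCC827-Del-TM. Its part in the 2 counts was not tested.

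At the edge of the rule, NCF4, PCDH1 and RAET1G were just inside on the treated side, each with a highest treated detection p of 0.00909, and ECSCR, ODAD3 and STX11 just outside, at 0.0104. On the control side, PCDH1 and TMEM25 (lowest control detection p 0.0104) and ATG9B (0.0117) were just inside, and CD274, CYFIP2 and GLB1L (0.00909) just outside. A further 35 genes were undetected in all controls and detected on 5 of 6 treated arrays, and 23 were detected on all treated arrays and 1 control array. Only 1 probe measured 27 of the 41 genes. Of the 14 with several, CYTH4 and VWA5A had more than 1 probe on in every treated array, and 10 had at least 1 probe detected on no array. The 10 were CA12, COL4A6, FXYD1, HTR3A, NCF4, PCDH1, SERPINI1, SPRR2D, SUN3 and TM4SF19.

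Whether the treated lines differed in these genes was tested directly, since the rule asked only that both be detected. Of the 41 genes, 31 passed the threshold of an adjusted p under 0.05 (75.6%), 14 higher and 17 lower in treated HCC827-Del-TM. Over all 11808 genes tested the share was 63.1% (29.4% higher, 33.7% lower), and it was 64.7% over the 9614 detected on all 6 treated arrays, so most genes, on this list or not, differed between the treated lines. The median absolute log2 difference was 0.51 over the 41 genes and 0.35 over all genes tested. The normalized intensities of the treated lines did not overlap for 31 genes (15 higher and 16 lower in HCC827-Del-TM), against 67.4% of all genes tested (31.6% higher, 35.8% lower). With median scaling, 10 were higher and 21 lower, while the median over all genes moved from -0.02 to -0.18. The tests rest on 3 cultures per group, whose number limits the precision.

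Lower in treated HCC827-Del-TM were both germline genes and 4 of 5 barrier genes, against 33.7% of all genes tested. These groups are small, and the roles were assigned with earlier results of these data known. GTSF1 was lower by a log2 difference of -2.73 (SE 0.0991, limma adjusted p = 3.31e-11), that is 6.65-fold higher in treated HCC827-Del on the background-corrected scale. SBSN differed by -2.63 (adjusted p = 2.13e-10), SUN3 by -2.51 (adjusted p = 2.39e-11) and QPRT by -2.38 (adjusted p = 3.43e-11). These 4 were the largest differences in this direction, each with every HCC827-Del array above every HCC827-Del-TM array. TM4SF19 followed at -1.86, PADI3 at -1.73, UPK1A at -1.38 and MARCO at -1.32, with adjusted p-values from 6.88e-09 to 1.29e-07. The other genes lower in treated HCC827-Del-TM were FXYD1, SPRR2D, GLIPR1, RAET1G, RADX, VWA5A, HTRA1, BCAS1 and ALOX5AP, from -1.03 to -0.29. BCAS1 and ALOX5AP lost the call in 6 and 4 of 24 alternatives. RAET1G was tested on its brighter probe, which is not the one that met the rule, and the latter differed by 0.08 (adjusted p = 0.535).

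Higher in treated HCC827-Del-TM were CAMP, by a log2 difference of 2.17 (SE 0.0866, limma adjusted p = 8.51e-11), and TNFSF10, by 1.56 (SE 0.107, adjusted p = 2.24e-08). SERPINB13 was higher by 1.55 (adjusted p = 7.71e-08), the exception among the 5 barrier genes that met the rule. It was not the exception among barrier genes in general. Of 22 other squamous and barrier genes tested, from a list described below, 7 were higher and 12 lower in treated HCC827-Del-TM. COL4A6 was higher by 1.09 (adjusted p = 3.24e-06), MAP7D2 by 0.72 (adjusted p = 6.15e-05) and NCF4 by 0.57 (adjusted p = 0.000497). MYH8 and TMEM40 followed at 0.52 and 0.51, with adjusted p-values of 0.00131 and 0.00114. CPS1 and H4C5 were higher by 0.50 and 0.49. ATG9B, CYTH4, DDC and GBP5 were higher by 0.23 to 0.36, and lost the call in 6, 7, 9 and 17 of 24 alternatives, each of them under median scaling. Of the 9 immune genes, 5 were higher, 3 lower and HAVCR2 did not pass the test. Over all genes tested, 29.4% were higher and 33.7% lower. RAET1G counts among the 3 only by the probe that did not meet the rule.

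Not past the threshold were HTR3A, at -0.04 (SE 0.106, limma adjusted p = 0.778), HAVCR2, SERPINI1, PCDH1, F5, TMEM25, LINC02783, LDLRAD1, ALPL and CA12. Their differences ran from -0.25 to 0.22. Comparisons that involve the control arrays say nothing further about the 41 genes, since the rule took the genes for being below detection there. Between the control lines, 4 genes (H4C5, SPRR2D, CPS1 and TMEM40) passed the threshold, 3 higher and 1 lower in HCC827-Del-TM, and 36.5% of all genes tested did (16.2% higher, 20.3% lower). The selection itself holds this count down, and no fold is given. The difference of the treatment effects passed for 22 genes, 9 higher and 13 lower in HCC827-Del-TM, and for 42.5% of all genes (20.3% higher, 22.3% lower). It has no measured control side for the 41 genes, and nothing is read from it.

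**Figure D4:**
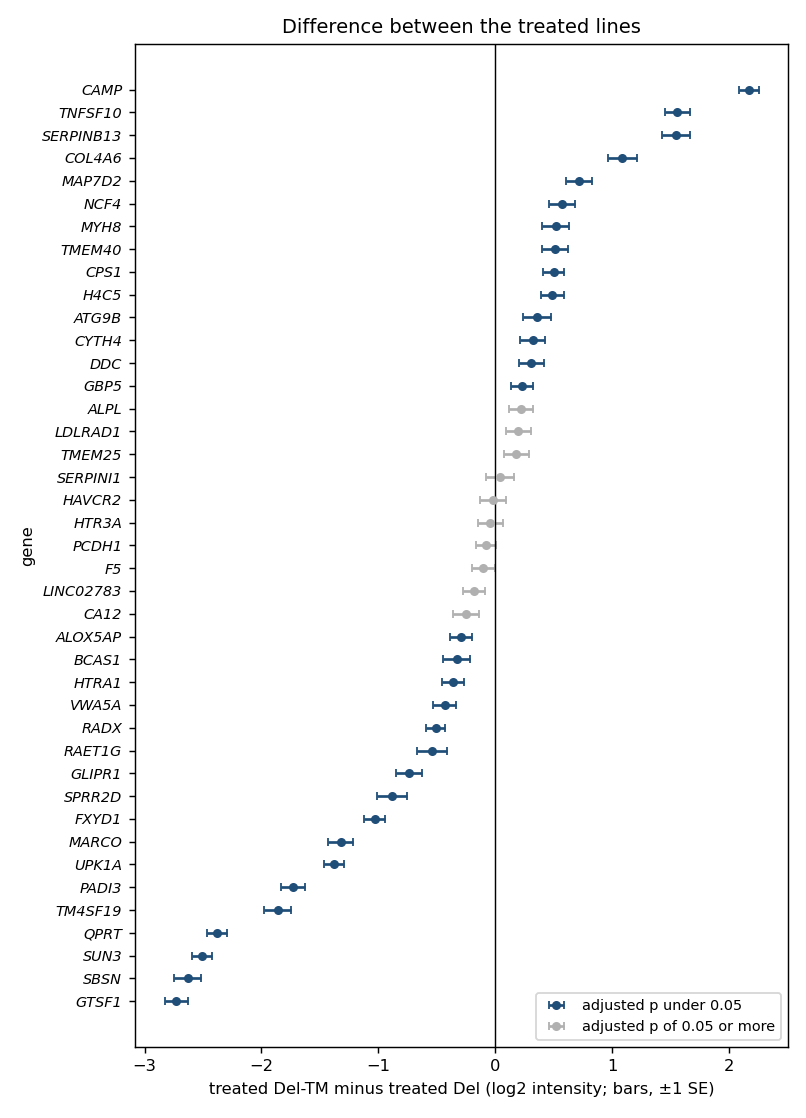
Log2 intensity in treated HCC827-Del-TM minus treated HCC827-Del for each of the 41 genes, ordered by the difference; points are means of 3 against 3 arrays, bars 1 standard error either way. Blue marks the 31 genes with an adjusted p under 0.05 (14 higher, 17 lower) and grey the other 10; GTSF1, SBSN, SUN3 and QPRT lie furthest to the left and CAMP furthest to the right.

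The CpG content of the gene starts was also set beside the direction of the difference. It had a median of 0.207 for the 11 genes higher in treated HCC827-Del-TM that have a sequence (range 0.0395 to 1.42), 0.349 for the 11 lower (0.0977 to 0.96) and 0.477 for the 8 others (0.145 to 0.839). The 3 ranges overlap.

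The 41 genes lay on 18 chromosomes, with 7 on chromosome 1, 5 on chromosome 3 and 3 on X. Some were near each other in gene order. SBSN and UPK1A on chromosome 19 had 8 genes between them, DDC and SUN3 on chromosome 7 had 9, CYTH4 and NCF4 on chromosome 22 had 10, and FXYD1 and SBSN had 14. Protein-coding genes directly next to the 41 numbered 80, of which 47 were tested and were not among the 41. Of the 47, 17 rose (36.2%) and 5 fell (10.6%) in HCC827-Del, against 24.8% and 26.5% of all genes tested, and 17 rose (36.2%) and 7 fell (14.9%) in HCC827-Del-TM, against 21.7% and 24.1%. Of those that rose, 6 in HCC827-Del and 5 in HCC827-Del-TM were undetected in the controls of that line, and 2 of the 5 (NOS3 and PADI4) were detected on no array of HCC827-Del-TM, so they show no measured rise there. Over flanking genes detected on all 3 controls of the line, 10 of 33 rose (30.3%) and 5 fell (15.2%) in HCC827-Del, and 12 of 35 rose (34.3%) and 7 fell (20%) in HCC827-Del-TM. All genes so detected rose and fell at 21.6% and 30.5% in HCC827-Del and at 21.6% and 27.9% in HCC827-Del-TM. Of 32 flanking genes detected on all 6 controls, 7 rose in both lines (21.9%, against 9.35% of all such genes).

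ITGA5, the fibronectin receptor integrin gene next to GTSF1, rose by 1.71 on the log2 scale in HCC827-Del and 1.61 in HCC827-Del-TM (limma adjusted p = 1.21e-09 and 4.25e-09). H2BC8, a histone gene beside H4C5, rose by 0.94 and 1.84 (adjusted p = 3.44e-07 and 8.44e-10), and NCEH1, a neutral cholesterol ester hydrolase gene beside TNFSF10, by 1.17 and 1.04 (adjusted p = 2.69e-07 and 1.2e-06). COL4A5, the collagen chain gene next to COL4A6, rose by 0.44 and 0.96 (adjusted p = 0.000277 and 2.92e-07). SERPINB4, beside SERPINB13, was at least 3.71-fold higher in HCC827-Del, where it was undetected in the controls, and rose by 4.16 on the log2 scale in HCC827-Del-TM (adjusted p = 2.12e-12). C7orf57, beside SUN3, rose by 2.09 in HCC827-Del (adjusted p = 2.75e-10) and was at 0.02 in HCC827-Del-TM (adjusted p = 0.864), where it was detected on 1 control and 1 treated array. DMKN, the dermokine gene next to SBSN, fell by 0.40 and 0.70 (adjusted p = 0.00111 and 1.14e-05).

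**Figure D5:**
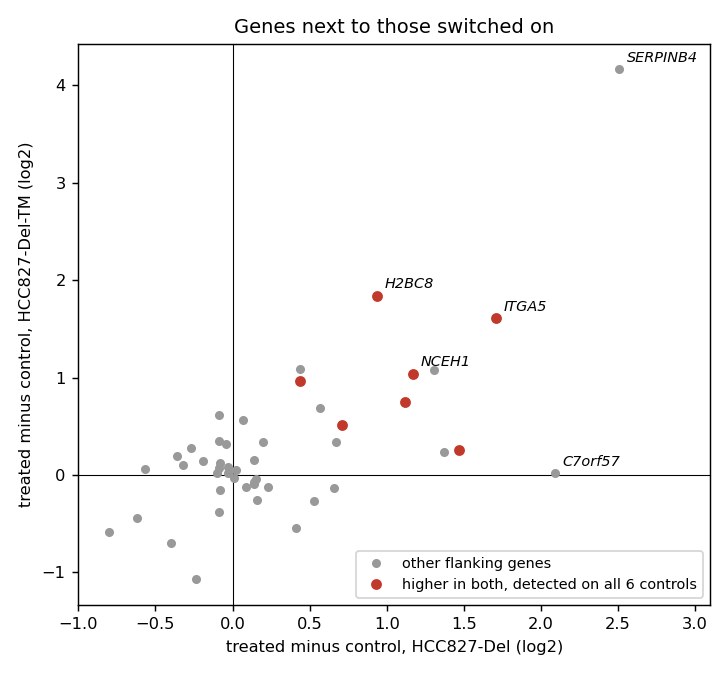
Treatment effect in HCC827-Del (horizontal axis, log2) and HCC827-Del-TM (vertical axis, log2) for the 47 tested protein-coding genes next to the 41 genes. Red marks the 7 genes detected on all 6 control arrays and higher in both lines with an adjusted p under 0.05. SERPINB4 lies furthest up and C7orf57 near 0 on the vertical axis. Fitted values of genes undetected in the controls are not measured folds, and NOS3 and PADI4 show no measured rise in HCC827-Del-TM.

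Other genes of the same tissues, from lists drawn up with earlier results of these data known, were counted next, with the 41 genes left out. A gene undetected in the controls was tested only if other arrays brought it past the filter, so these counts lean towards a rise and describe only the genes tested. Beside most counts over the genes tested, which for all genes was 24.8% up and 26.5% down in HCC827-Del and 21.7% and 24.1% in HCC827-Del-TM, stands the count over genes detected on all 3 controls of the line. For all genes so detected it was 21.6% up and 30.5% down in HCC827-Del and 21.6% and 27.9% in HCC827-Del-TM. Of the genes with a probe, 28 of 58 germline genes, 11 of 40 squamous and barrier genes, 20 of 43 neuronal genes and 17 of 41 mesenchymal, muscle and endothelial genes were detected on no array. In the list of 40 squamous and barrier genes with a probe, which included SBSN, SPRR2D and SERPINB13, 22 others were tested. Of these, 15 rose and 3 fell in HCC827-Del (median log2 0.47, against -0.03 over all genes) and 8 rose and 3 fell in HCC827-Del-TM (median 0.20, against -0.01). Of the 11 detected in the controls of each line, 6 rose and 3 fell in HCC827-Del and 7 rose and 3 fell in HCC827-Del-TM. KRT13, a keratin gene of mucosal squamous epithelium, was at least 4.62-fold higher in HCC827-Del. SERPINB3, a close paralog of SERPINB4, was at least 2.29-fold higher in HCC827-Del. It rose by 3.48 on the log2 scale in HCC827-Del-TM (SE 0.0908, limma adjusted p = 6e-12). KRT4, another mucosal keratin gene, fell in both lines. Its log2 changes were -4.38 in HCC827-Del and -3.46 in HCC827-Del-TM (limma adjusted p = 5.48e-13 and 1.61e-11). SPRR2A, beside SPRR2D, was at least 1.45-fold higher in HCC827-Del-TM.

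Among 21 germline genes tested, 17 rose and 3 fell in HCC827-Del (median 1.13), 12 of the 17 from undetected in the controls. In HCC827-Del-TM 6 passed upwards and 1 fell (median 0.13), but 1 of the 6, PIWIL2, was detected on no array of that line. Of those detected in the controls, 4 of 8 rose and 3 fell in HCC827-Del and 4 of 7 rose and 1 fell in HCC827-Del-TM. H2AB1, a testis histone variant gene, TKTL1, a transketolase-like gene, and MAEL, a piRNA pathway gene, had bounds of at least 14.9-fold, 13.7-fold and 2.6-fold in HCC827-Del, and all 3 were undetected in treated HCC827-Del-TM. GTSF1 and SUN3, which are not on this list, were detected in both treated lines. STK31 rose by 1.38 in HCC827-Del and 0.82 in HCC827-Del-TM (limma adjusted p = 5.63e-07 and 9.4e-05). CT83 rose by 0.79 in HCC827-Del-TM (adjusted p = 2.13e-05), and fell in HCC827-Del, with a log2 change of -0.46 (adjusted p = 0.00158). Of 21 mesenchymal, muscle and endothelial genes, 15 rose and 3 fell in HCC827-Del, 10 of the 15 from undetected. In HCC827-Del-TM 7 passed upwards and 1 fell, but 1 of the 7, VWF, was detected on no array of that line. Of those detected in the controls, 5 of 10 rose and 3 fell in HCC827-Del and 4 of 8 rose and 1 fell in HCC827-Del-TM. COL6A3, a collagen chain gene, was at least 6.4-fold higher in HCC827-Del. VIM, the vimentin gene, rose by 1.07 in HCC827-Del and 2.14 in HCC827-Del-TM (limma adjusted p = 5.98e-08 and 1.24e-10). Of 15 neuronal genes, 9 rose and 5 fell in HCC827-Del, and 6 rose and 3 fell in HCC827-Del-TM (6 and 5 of 11, and 6 and 3 of 12, over those detected in the controls). CALB2, the calretinin gene, rose by 3.90 and 2.02 (adjusted p = 1.2e-12 and 2.16e-09).

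Of all the lists, only that of squamous and barrier genes held any of the 41 genes. The counts of the remaining lists are to be read against the same shares over all genes. Of 10 genes known to respond to histone deacetylase inhibitors, 8 rose and 1 fell in HCC827-Del and 6 rose and 2 fell in HCC827-Del-TM (7 and 1 of 9, and 6 and 1 of 7, over those detected in the controls). GSN, the gelsolin gene, rose by 0.96 in HCC827-Del (limma adjusted p = 1.25e-05) and 1.82 in HCC827-Del-TM (SE 0.117, adjusted p = 3.42e-08). Of 21 genes known as methylated in cancers, 5 rose and 6 fell in HCC827-Del and 6 rose and 3 fell in HCC827-Del-TM (4 and 6 of 17, and 6 and 3 of 15, over those detected in the controls). NPTX2, a neuronal pentraxin gene, was at least 6.26-fold higher in HCC827-Del, and was detected on no array of HCC827-Del-TM. CDKN2B, a cell-cycle inhibitor gene, rose by 1.47 in HCC827-Del-TM (adjusted p = 2.94e-08) and was at 0.02 in HCC827-Del (adjusted p = 0.853). MGMT fell in HCC827-Del, with a log2 change of -1.14 (adjusted p = 3.46e-08), and was at 0.04 in HCC827-Del-TM (adjusted p = 0.671). Of 15 epithelial identity markers, 1 rose and 11 fell in HCC827-Del, and 5 rose and 6 fell in HCC827-Del-TM. Of 6 axoneme and cilium genes, 3 rose and 2 fell in HCC827-Del, and 0 rose and 2 fell in HCC827-Del-TM. Of 5 clustered protocadherins, 0 rose and 1 fell in HCC827-Del, and 3 rose and 0 fell in HCC827-Del-TM.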

How the data were processed

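The 12 arrays were 1-colour bead arrays of biotinylated cRNA, per the labels. The authors deposited, for each probe, a signal intensity that is neither background-subtracted nor normalized, and a detection p-value, per the file headers. They also deposited log2 values, quantile-normalized as the values show. The sources used here do not give the software behind these. Of 47323 probes, 30113 had 1 gene symbol in the platform annotation.

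Signals were corrected with limma's nec (offset 16, from the detection p-values), quantile-normalized and log2-transformed in R 4.3.3 with limma 3.58.1. A probe was kept with detection p under 0.01 on at least 3 arrays. The brightest kept probe stood for each of 11808 genes. limma's lmFit and eBayes were fitted to all 12 arrays with 1 coefficient per group, and two-sided p-values were adjusted by Benjamini-Hochberg over all genes, with a threshold of 0.05. The fit was checked on simulated data. Bounds used the probe that met the rule.

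The members, gene lists, roles and tests were chosen with earlier results of these data known. Every member is named. Full treated signals are given for the 8 largest bounds per line and for members of the lists. They are also given for the 8 largest called differences per direction, except MAP7D2, NCF4, MYH8 and TMEM40. These and most other genes are given by a range over both treated lines. Of list genes, up to 3 with the largest changes were named, and some others beside them. Motifs and CpG used RefSeq windows (GRCh38.p14), at the start with the highest CpG ratio where a gene has several. The alternatives were other normalizations, filters, probes, variance models and thresholds, a block for the replicate number, and each array left out. The bounds under other normalizations and the counts over genes detected in the controls were added after the data were seen. No chip is named in the headers, so a chip block was not run.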

Additional observations from a re-analysis of the deposited data

Results flagged for a closer look

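The difference of treatment effects between the lines passed an adjusted p under 0.05 in the limma fit for 22 of the 41 genes. Over all 11808 genes tested, 42.5% passed. Because the rule chose the genes as below detection on every control array, the control side of this difference is not a measured level, and no values per gene are given. The treated lines are compared directly in the report.

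Probes outside the named genes also gave signal. Of 17210 probes without a single gene symbol, 15 were undetected on all 6 control arrays and detected on all 6 treated arrays, and 4 showed the opposite pattern. They are unnamed here and enter no comparison.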

How the results depend on the processing

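The number of genes that met the rule was 53 with a detection p under 0.05 on both sides (16 of the 41 among them), 3 with a p under 0.001 on treated arrays, 42 with any probe counted on each treated array and 43 to 58 with 1 array left out (58 without replicate 1 of treated HCC827-Del-TM); leaving out an array can only add genes. Calls between the treated lines numbered 25 to 32 over 24 alternatives, and 28 genes kept the same call in all 24. The 13 others were ALOX5AP, ALPL, ATG9B, BCAS1, CA12, CYTH4, DDC, F5, GBP5, LINC02783, NCF4, PCDH1 and RAET1G. RAET1G turned to 0.08 when a probe had to be detected on 6 arrays and ran from -0.71 to 0.06 with 1 array left out (0.06 without replicate 3 of treated HCC827-Del, adjusted p = 0.692). Both settings tested its other probe. Median scaling moved the split from 14 higher and 17 lower to 10 and 21, and cyclic loess to 11 and 19. Between the control lines, the 4 calls became 2 without background correction, 2 with the authors' values, 1 at an adjusted p under 0.01, and 2 to 6 with 1 array left out (2 without replicate 1 of the HCC827-Del-TM control). The cause was not tested. The share of comparison genes with a CpG ratio of 0.6 or more was 70.8% over the array and 43.2% over undetected genes, and 5 of the 30 genes with a sequence reached 0.75 (6 reached 0.6). With the replicate number as a block, 30, 20 and 4 genes were called between the treated lines, in the difference of effects and between the controls. Deviations of same-numbered arrays correlated at -0.03 to 0.05, and those of differently numbered arrays of 2 groups at -0.06 to 0.04. Same-numbered arrays were thus no more alike than others, which cannot show whether their cultures were handled together. Signal close to background limits the bounds, which fell below 2 for most genes.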
